A study of Mus musculus with 9 samples.

Results

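The set described here holds 10 mouse genes of the protein-synthesis machinery and abundant transcripts linked to growth: Eef1a1, Eef1b2, Eef2, Tpt1, Eif4a1, Eif1, Pabpc1, Npm1, Eif3e and Naca. They were chosen by symbol, and all 10 were found among the 52550 gene rows of the count table. RNA was sequenced from haematopoietic stem cells of bone marrow in 9 libraries, 3 a group. Young WT libraries came from wild-type mice of 2 months and old WT libraries from wild-type mice of 22 to 24 months. Old KO libraries came from mice of the second age range whose genotype is given as B6N.129S6-Sphk2tm1Rlp/J (Sphk2 cKO), while their titles read Sphk2_KO. No Cre driver is named. No group received a treatment that the labels name, and all groups share the sort, which took 1000 cells without lineage markers that carried Sca1, c-Kit and CD150 and lacked CD48, and 13 cycles of amplification. Replicates are described as technical and no mouse is named, so p-values measure the spread between these samples alone, which may be technical.

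Protein synthesis runs in steps that these genes serve in turn. Initiation factors place the ribosome at the start codon, elongation factors bring in aminoacyl-tRNAs and move the ribosome along, poly(A)-binding protein joins the tail of the mRNA to its cap, and the nascent polypeptide-associated complex meets the new chain as it leaves the ribosome. Haematopoietic stem cells are known for a low rate of protein synthesis compared with the progenitors they give rise to. Many mRNAs of this machinery begin with a terminal oligopyrimidine tract, a run of C and T letters at the cap end through which mTOR signalling and LARP1 control their translation.

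Start-site sequences are shown because that tract is the feature these genes are best known to share. RefSeq (GRCm38.p6) promoter windows matched 7 of the 10 genes, and Pabpc1, Npm1 and Eif3e were not matched. On the transcribed strand, the longest run of C or T letters was searched within 50 bases of each annotated start. Capitals mark that run, and 30 bases around it are printed for the longest run, 2 intermediate ones and the shortest. Eef1a1 lies at chr9:78481710-78481739 (minus strand), Eef2 at chr10:81176634-81176663 (plus strand), Tpt1 at chr14:75845276-75845305 (plus strand) and Eif4a1 at chr11:69672452-69672481 (minus strand).
Eef1a1: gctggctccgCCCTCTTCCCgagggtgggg
Eef2: gacgtcagcggTCTCTTCCgccgcagccgc
Tpt1: cggtgacgtagccgagcgtgCCCTCTatat
Eif4a1: gggctttcaaactaCCCaatagggcgtccg
The run was 10 letters in Eef1a1, and 18.1% of 32851 windows of the same length held a run at least as long. It was 8 letters in Eef2 (35.7% of windows), 6 in Tpt1 (68.1%) and 3 in Eif4a1 (99.6%), beside a median of 7 over all windows. The other 3 matched genes had runs of 7 letters (Naca and Eif1) and 5 letters (Eef1b2). Relative to the annotated start the runs began at base -5 in Eef1a1, 15 in Eef2, 41 in Tpt1 and -44 (upstream) in Eif4a1. Their lengths therefore do not measure a tract at the cap end. A longer run of C and T letters early in the printed Eif4a1 bases lies outside the 50 bases searched. These are letter matches and not mapped transcript starts.

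The libraries differed in depth and in how much of their sequence lay in genes. Counts in genes numbered 28088637 to 74021822 per young WT library, 3145167 to 5115003 per old WT library and 11284847 to 17544945 per old KO library. Counts outside annotated genes made up 6.51% to 12.5%, 80.8% to 87.7% and 45.0% to 61.9% of all counts in the same order. A background was taken from olfactory receptor exons, which blood cells do not use, and a gene counted as above it with at least 20 counts and 5 times that density over its exons. By this measure 7351 to 8117 protein-coding genes were above background in young WT, 631 to 1108 in old WT and 2863 to 4144 in old KO. The targeted gene Sphk2 had 3.13 to 22.8 CPM (counts scaled so that each library's genes sum to the same total) in young WT, 0.318 to 10.2 in old WT and 0.456 to 2.04 in old KO, and it was above background in the 3 young WT libraries alone, so it does not check the old groups' labels. Of 8 stem cell and sort markers, 7 passed the background in 2 or more young WT libraries, 7 in old KO and 0 in old WT, where their summed level ran from 118 to 1882 CPM against 1175 to 1508 in young WT. Of 7 neutrophil markers, 4, 1 and 2 passed in young WT, old WT and old KO, with summed levels of 38.8 to 172, 42.0 to 641 and 14.5 to 496 CPM. Megakaryocyte markers (3, 0 and 2 of 5), erythroid markers (6, 0 and 0 of 7) and B cell markers (1, 0 and 0 of 5) were highest in number in young WT. No T cell or macrophage marker of 5 each passed in 2 or more libraries of any group, though Cd68, C1qb, Cd3d and Cd4 each passed in 1 young WT library. The part of these cell types in the results was not tested. In such bulk samples fewer cells of a type and less RNA per cell cannot be told apart.

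Tpt1 encodes translationally controlled tumour protein, a growth-associated protein whose mRNA is among the most abundant in many cells. Its gene lies on chr14:75845093-75848525 (GRCm38, plus strand; ENSMUSG00000060126). It had 30433, 27819 and 40589 CPM in young WT libraries 1, 2 and 3, 11108, 17352 and 7306 CPM for old WT and 55459, 56503 and 35403 CPM for old KO. All 3 old WT libraries lay below all 3 young WT and all 3 old KO libraries, while young WT and old KO overlapped. Ranked per length (CPM per kb of the principal transcript) among 21819 protein-coding genes, Tpt1 was 1st or 2nd in every young WT and old KO library and 7th, 5th and 7th in old WT. It alone took 2.78% to 4.06% of all counts in genes in young WT, 0.731% to 1.74% in old WT and 3.54% to 5.65% in old KO.

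Tpt1 has processed copies in the genome that bear on how its reads can be assigned. A stretch of 60 coding bases (121 to 180 of 516, counted from the A of the start codon) is shown for the gene and for its copy Tpt1-ps5 on chr9:37696515-37697030, where capitals mark the 2 mismatched positions.
Tpt1: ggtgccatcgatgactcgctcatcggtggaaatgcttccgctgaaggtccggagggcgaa
Tpt1-ps5: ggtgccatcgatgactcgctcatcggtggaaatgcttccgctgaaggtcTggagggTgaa
The copies Tpt1-ps3 (chr6:99877816-99878334, minus strand) and Tpt1-ps6 (chrX:101768535-101769057, plus strand) carry the same letters as Tpt1 in this stretch. Tpt1-ps3 was identical to Tpt1 over 519 aligned bases, and its row held 23300, 12902 and 18589 counts in young WT, 2865, 817 and 849 for old WT and 7269, 9744 and 7926 for old KO. Together 4 copies held counts equal to 1.05% to 1.71% of those of Tpt1 in young WT, 1.55% to 5.12% in old WT and 1.01% to 1.56% in old KO. How reads of identical stretches were shared out is not given in the sources used here, so the level of Tpt1 is uncertain.

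In young WT the elongation factors Eef1a1 and Eef1b2 came next in abundance. Eef1a1 encodes the GTPase that delivers aminoacyl-tRNAs to the ribosome and lies on chr9:78478449-78489151 (minus strand). It had 14968, 11478 and 9338 CPM in young WT, 6378, 4256 and 6670 CPM for old WT and 11187, 6871 and 14484 CPM for old KO. Old WT libraries lay below all others, by a narrow margin against old KO library 2, and young WT and old KO overlapped. Eef1b2, the exchange factor that reloads the Eef1a1 protein with GTP, lies on chr1:63176825-63180486 (plus strand). It had 7323, 7145 and 5823 CPM in young WT, 3666, 3231 and 453 CPM for old WT and 2096, 3861 and 4819 CPM for old KO. Both old groups lay wholly below young WT and overlapped each other, with old WT library 3 the lowest.

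Eef2, the GTPase that translocates the ribosome by 1 codon, lies on chr10:81176631-81182498 (plus strand). It had 2032, 1399 and 1735 CPM in young WT, 224, 1571 and 85.0 CPM for old WT and 1521, 1000 and 1684 CPM for old KO. Old WT library 2 fell inside the young WT range and the other 2 old WT libraries below it, so all groups overlapped. Old WT library 3 held 293 Eef2 counts, while 3 processed copies of the gene held 590 counts there.

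Among the initiation factors, Eif1 keeps the scanning ribosome accurate in its choice of start codon and lies on chr11:100319885-100322096 (plus strand). It had 1905, 1491 and 1788 CPM in young WT, 993, 732 and 69.9 CPM for old WT and 3978, 3911 and 4018 CPM for old KO. The 3 groups did not overlap: old WT was lowest, young WT in between and old KO highest. The old KO mean was 3969 ± 54.1 CPM (SD, n = 3), against 1728 ± 213 in young WT and 598 ± 476 in old WT (SD, n = 3 each). The highest old KO library was 1.03 times the lowest, the narrowest spread of the 10 genes in that group.

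Eif4a1, the RNA helicase that unwinds the leader of the mRNA, lies on chr11:69666936-69672423 (minus strand). It had 435, 399 and 480 CPM in young WT, 8.80, 127 and 7.25 CPM for old WT and 502, 226 and 587 CPM for old KO. Old WT lay below both other groups, and only its library 2 was above background, since libraries 1 and 3 had 1.04 and 0.544 times the background count. Eif3e, a subunit of the eIF3 complex that binds the small ribosomal subunit, lies on chr15:43250058-43282719 (minus strand). It had 369, 272 and 92.1 CPM in young WT, 14.3, 10.8 and 10.7 CPM for old WT and 15.6, 297 and 362 CPM for old KO. No old WT library was above background, nor was old KO library 1, which had 210 counts or 4.59 times the background count.

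Pabpc1, the cytoplasmic poly(A)-binding protein, lies on chr15:36595661-36609668 (minus strand). It had 2093, 2035 and 1607 CPM in young WT, 208, 773 and 340 CPM for old WT and 2118, 1279 and 1672 CPM for old KO. Old WT lay below both other groups, which overlapped. Naca, the alpha subunit of the nascent polypeptide-associated complex, lies on chr10:128035575-128048637 (plus strand). It had 1239, 1214 and 1214 CPM in young WT, 2244, 231 and 1348 CPM for old WT and 854, 1664 and 1334 CPM for old KO. Young WT libraries were nearly equal, and old WT libraries fell on both sides of them. Npm1, the nucleolar chaperone nucleophosmin, which takes part in ribosome assembly, lies on chr11:33152287-33163206 (minus strand). It had 1858, 1149 and 1116 CPM in young WT, 49.3, 1163 and 67.9 CPM for old WT and 746, 1348 and 1255 CPM for old KO. As for Eef2, old WT library 2 was inside the young WT range and the other 2 were far below it.

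**Figure D1:**
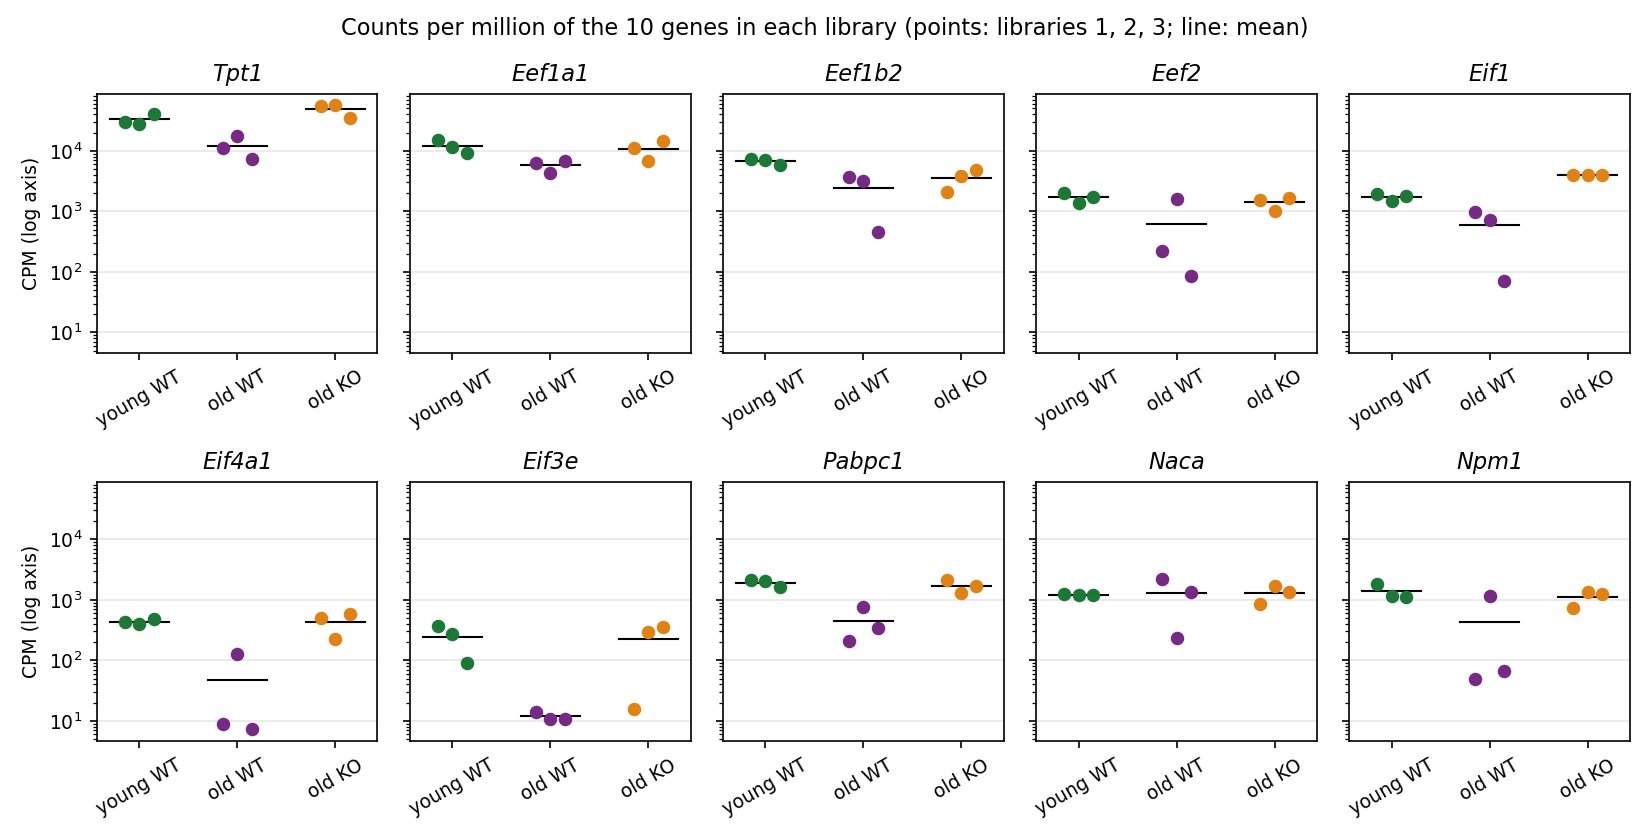
CPM on a log axis for each of the 10 genes, with 1 point per library (libraries 1 to 3 from left to right in each group) and a line at the group mean. The Eif1 points of old KO, at 3911 to 4018 CPM, sit above every other library, and within old WT the points of Npm1, Eef2 and Eif4a1 are the most widely spread.

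The order of the genes was compared per length. In young WT the mean CPM per kb fell from Tpt1 (28184) through Eef1a1 (6649) to Eef1b2 (3488), with ranges apart at each step. Naca (1381), Eif1 (1307), Npm1 (842), Pabpc1 (679) and Eef2 (557) followed, and each overlapped the next. Eif4a1 (247) and Eif3e (162) came last and overlapped. In old KO the order on the same scale began with Tpt1 (42020), Eef1a1 (6047) and Eif1 (3002), each apart from the next, so that Eif1 stood ahead of Eef1b2 (1852). In old WT Tpt1 (10198) was apart from Eef1a1 (3215), and from there to Pabpc1 (156) each neighbour overlapped the next.

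The old WT libraries differed among themselves more than those of the other groups. The highest library was a median of 8.91 times the lowest over the 10 genes in old WT (from 1.33 for Eif3e to 23.6 for Npm1), 1.38 times in young WT and 1.88 times in old KO. Of the 10 genes, 6 spread over more than 5-fold in old WT, 0 in young WT and 1 in old KO, which was Eif3e. Library 2 was the highest of the 3 old WT libraries for 5 genes, library 1 for 4 and library 3 for 1. Library 3 was the lowest for 6 genes. Relative to the young WT mean, Npm1 was at 0.0358, 0.846 and 0.0494 in old WT libraries 1, 2 and 3, and Naca at 1.84, 0.189 and 1.10. The genes thus did not move as a block from library to library.

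**Figure D2:**
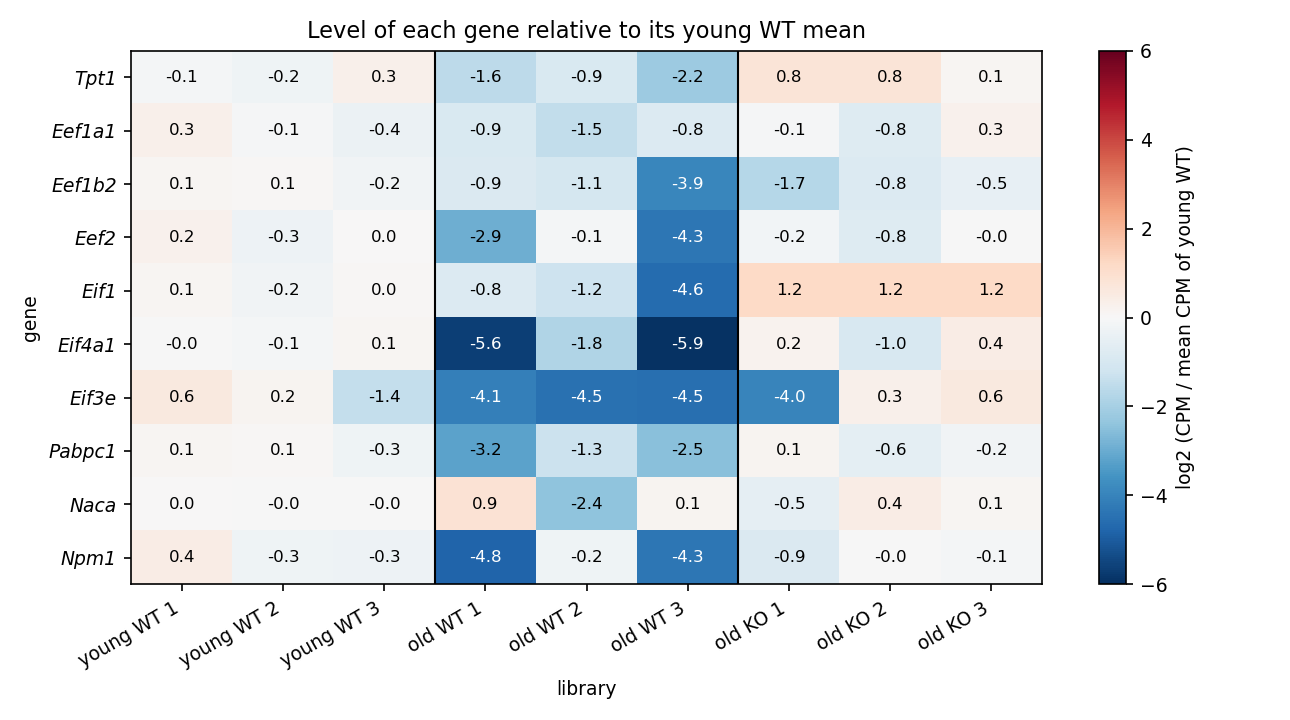
Each cell gives log2 of a library's CPM over the gene's mean CPM in young WT, with genes in rows and the 9 libraries in columns. Old WT columns hold the darkest blue cells in different rows, with Npm1 and Eef2 near 0 in library 2 and Naca above 0 in libraries 1 and 3.

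Together the 10 genes took 6.27%, 5.44% and 6.38% of counts in genes in young WT, 2.49%, 2.94% and 1.64% for old WT and 7.85%, 7.70% and 6.56% for old KO. The group means were 6.03% ± 0.512, 2.36% ± 0.664 and 7.37% ± 0.703 (SD, n = 3 each), and the ranges of the 3 groups did not overlap. Of these means Tpt1 alone took 3.29%, 1.19% and 4.91%. The higher sum in old KO than in young WT thus rests on Tpt1, whose level is uncertain. With the background subtracted, the means were 6.05%, 3.00% and 7.78%. Tpt1 held 48.6%, 51.1% and 63.6% of the 10 genes' counts in young WT, 44.6%, 58.9% and 44.7% for old WT and 70.7%, 73.4% and 54.0% for old KO. Eif1 held 2.74% to 3.04% of the set in young WT and 5.07% to 6.12% in old KO, while Eef1b2 held 9.13% to 13.1% in young WT and 2.67% to 7.34% in old KO. The ranges of both genes were apart between these groups on this measure too, which uses no scaling factor between libraries.

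**Figure D3:**
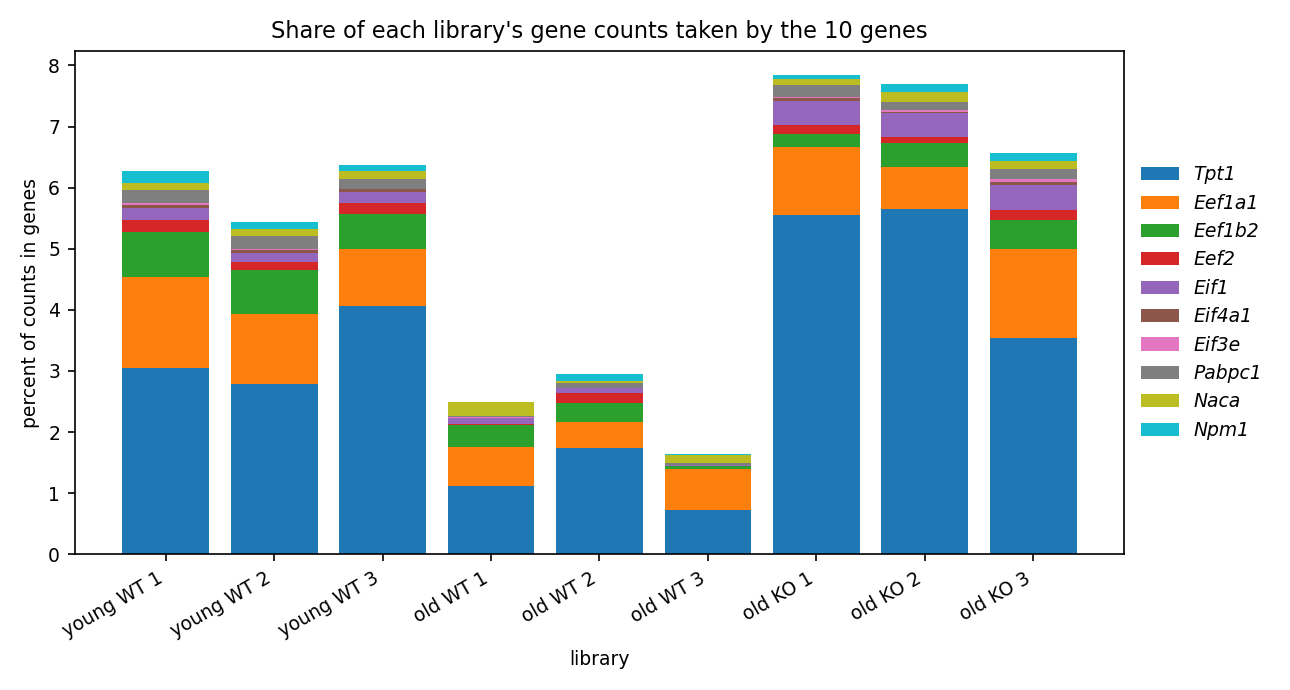
Stacked bars give the percent of each library's counts in genes taken by each of the 10 genes. The old WT bars reach 1.64% to 2.94% and the young WT and old KO bars 5.44% to 7.85%, with Tpt1 the largest segment in every bar.

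Old WT was compared with young WT to ask what changes in these cells with age. Under the scaling of edgeR's TMM factors all 10 genes fell. The smallest fall was that of Naca (log2 fold change -4.01 ± 1.01 SE, adjusted p = 0.0131) and the largest that of Eif3e (-8.45 ± 1.60, adjusted p = 0.00581, edgeR's quasi-likelihood test with Benjamini-Hochberg adjustment over 32582 genes). No old WT library was above background for Eif3e, so the size of its fall depends on the background. Tpt1 changed by -5.39 ± 0.73 (adjusted p = 0.00387) and Eef1a1 by -5.16 ± 0.82 (adjusted p = 0.00465). In this comparison 18.4% of all genes tested were called lower. Of the 5866 genes that passed the background in each young WT library, 80.1% were, so 10 of 10 is near their share. These 5866, called expressed genes below, were picked through young WT. That choice favours lower calls against young WT and leaves out genes expressed in old cells alone. The median over the 10 genes was -5.41, beside 1.37 over all genes tested and -5.35 over those 5866.

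These sizes depend on the scaling. Compared with scaling by total counts in genes, TMM factors moved log2 fold changes by a median of -3.90 over all genes. Scaled by total counts, 4 of the 10 genes were called lower, namely Tpt1 (-1.47, adjusted p = 0.00589), Pabpc1 (-2.12, adjusted p = 0.0174), Eif4a1 (-3.20, adjusted p = 0.0207) and Eif3e (-4.35, adjusted p = 0.00545, edgeR's quasi-likelihood test), against 3.48% of all genes tested and 19% of the 5866 expressed genes. The sizes for Eif3e and Eif4a1 depend on the background, which Eif3e passed in no old WT library and Eif4a1 in library 2 alone. Eef1a1, Eef1b2, Eef2, Eif1 and Npm1 had values of -1.05 to -1.69 that were not called, and Naca had 0.06. By CPM ranges alone 7 of 10 genes lay wholly lower in old WT, beside 5.87% of all genes tested and 32.6% of the 5866 expressed genes. The exceptions were Eef2, Npm1 and Naca. For a single gene the exact permutation test of 3 against 3 libraries gave p = 0.1 for those 7, two-sided, which is the smallest it can give (30 such tests were run over the 3 comparisons, and adjusted values cannot fall below 0.1). With background subtracted, the median over the 10 genes was -1.02 and 0 of 10 were called.

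Old KO was compared with old WT to ask what the loss of Sphk2 does in old cells. Tpt1 rose, by 3.79 ± 0.67 on the log2 scale (adjusted p = 0.0338, edgeR's quasi-likelihood test with Benjamini-Hochberg adjustment), from 11922 ± 5072 to 49122 ± 11892 CPM (SD, n = 3 each). It was the 1 gene of 10 called, beside 0.457% of all genes tested and 2.54% of the 5866 expressed genes called higher. The other 9 genes had positive values that were not called, from 1.97 ± 0.93 for Naca (adjusted p = 0.422) to 6.26 ± 1.45 for Eif3e (adjusted p = 0.0725) in the same edgeR fit. Eif1, at 4.49 ± 1.08, had an adjusted p of 0.0813 in edgeR's test although its CPM ranges were apart. By ranges 6 of 10 genes lay wholly higher in old KO (Tpt1, Eef1a1, Eif1, Eif4a1, Eif3e and Pabpc1), beside 1.91% of all genes tested and 10.1% of the 5866. For Eif3e this rests on old KO library 1 (15.6 CPM against at most 14.3 in old WT), which was not above background.

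The call of Tpt1 was not stable. Its adjusted p lay between 4.51e-05 (DESeq2) and 0.238 (edgeR's test on the 6 compared libraries) over the alternatives, and its direction was positive in each. Scaled by total counts the value was 2.04 (adjusted p = 0.146, edgeR's quasi-likelihood test), with background subtracted it was 2.13 (adjusted p = 0.0108, same test), and the call ended when any young WT or old WT library or old KO library 3 was left out (adjusted p 0.0549 to 0.185). This comparison shares its old WT libraries with the one above.

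Old KO was also set against young WT, which shares its libraries with the other 2 comparisons. Eef1b2 fell by 2.94 on the log2 scale (SE 0.93, adjusted p = 0.0492, edgeR's quasi-likelihood test with Benjamini-Hochberg adjustment), from 6764 ± 820 to 3592 ± 1381 CPM (SD, n = 3 each). It was the 1 gene of 10 called, beside 5.84% of all genes tested and 26% of the 5866 expressed genes called lower. The other 9 values lay between -0.93 ± 0.95 for Eif1 (adjusted p = 0.437) and -2.47 ± 1.20 for Npm1 (adjusted p = 0.131) in the same edgeR fit. By CPM ranges Eef1b2 alone was wholly lower, beside 22.5% of the 5866 and 4.06% of all genes tested. Eif1 alone was wholly higher, beside 3.49% of the 5866 and 53.5% of all genes tested. Each had p = 0.1 in the exact permutation test. The remaining 8 overlapped.

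Eif1 thus had a higher mean CPM in old KO than in young WT by 2241 CPM, and a negative value in the TMM fit. Scaled by total counts its log2 fold change was 1.20 (adjusted p = 0.196, edgeR's quasi-likelihood test), and that of Eef1b2 was -0.91 (adjusted p = 0.266). TMM factors moved all genes by a median of -2.01 in this comparison. The call of Eef1b2 ended when any library but old WT library 3 was left out (adjusted p 0.0586 to 0.157, edgeR's test).

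**Figure D4:**
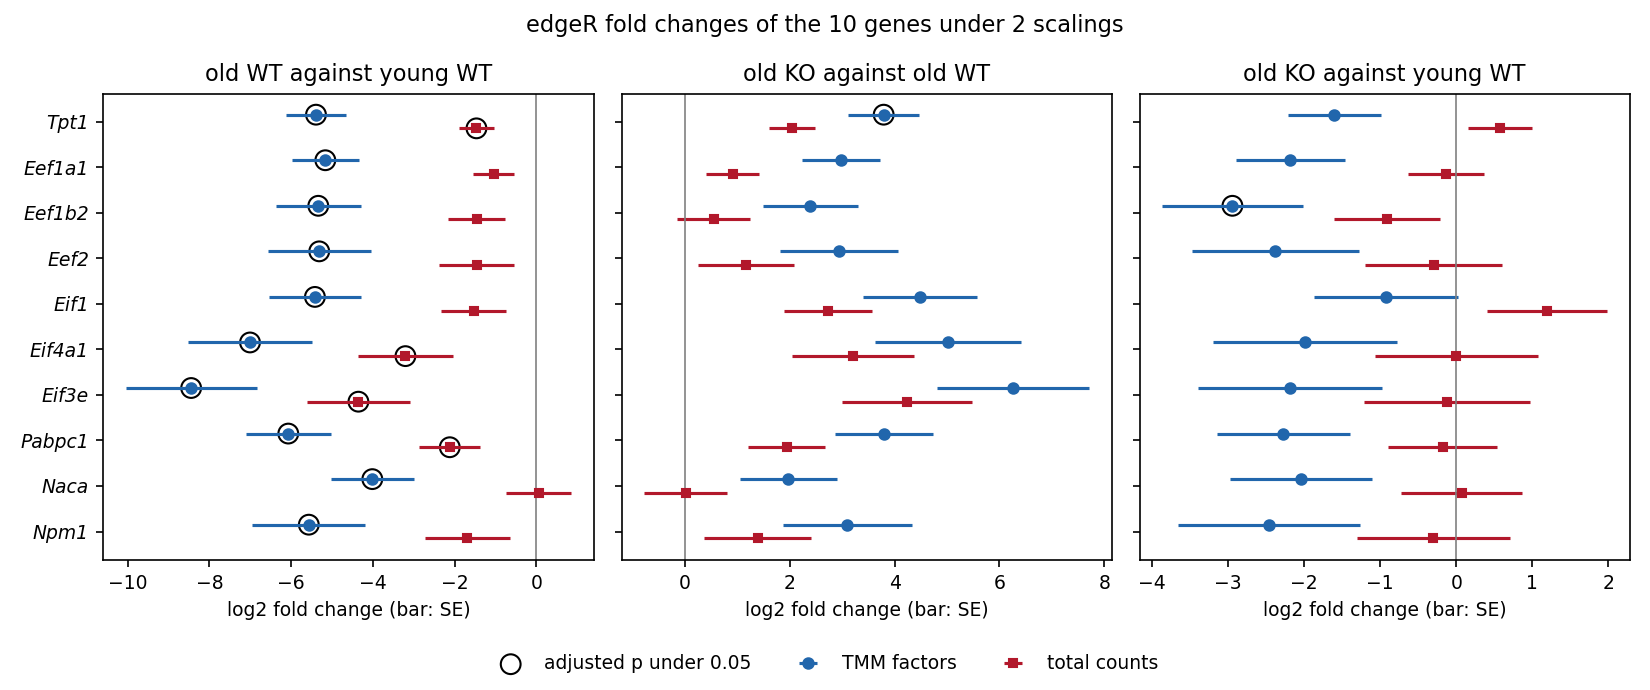
Log2 fold changes with their standard errors from edgeR for the 10 genes in the 3 comparisons, with circles for TMM factors, squares for total counts and a black ring around values with an adjusted p under 0.05. All 10 circles are ringed in old WT against young WT but 4 of the squares, 1 circle is ringed in each of the other panels, and the squares of Eif1, Tpt1, Naca and Eif4a1 lie at or right of 0 in old KO against young WT.

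The rest of the translation machinery was read from 8 lists of 122 genes, 120 of them tested, 9 of which are genes of the set above. In old WT against young WT, 97 fell, 0 rose and 23 were not called under TMM scaling. That is 80.8% of the genes tested, near the 80.1% of the 5866 expressed genes called lower (18.4% of all genes tested). Scaled by total counts, 29 of the 120 fell (24.2%), beside 19% of the 5866 and 3.48% of all genes tested. Another 4 were called higher, beside 1.96% of the 5866 and 68.4% of all genes tested. These were Eef1a2, Paip1, Srp54a and Eif2ak3, none of them among the 5866 or above background in an old WT library. By list under TMM scaling, 35 of 39 initiation factors fell, with a median of -6.29, elongation factors 7 of 8, poly(A)-binding proteins and partners 5 of 6, nascent-chain factors 6 of 7, nucleolar and assembly factors 16 of 19, cytosolic aminoacyl-tRNA synthetases 14 of 20, termination and recycling factors 3 of 5 and regulators of translation 11 of 16. With total counts the lower calls were 14 of 39 for initiation (median -2.17), 2 of 8 for elongation, 3 of 6 for poly(A)-binding, 2 of 7 for nascent-chain, 3 of 19 for nucleolar, 3 of 20 for synthetase, 0 of 5 for termination and 2 of 16 for regulator genes. Of the 122 genes, 116 passed the background in 2 or more libraries of young WT, 14 in those of old WT and 65 in those of old KO.

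Eif4a2, the second helicase of the Eif4a family, had 854 ± 246 CPM in young WT, 27.2 ± 16 for old WT and 731 ± 474 for old KO (SD, n = 3 each). It fell in old WT against young WT (-8.92 ± 1.35, adjusted p = 0.00419) and rose in old KO against old WT (6.71 ± 1.23, adjusted p = 0.0338, edgeR's quasi-likelihood test), although no old WT library was above background. With total counts the second value was 4.75 and the call ended (adjusted p = 0.146, same test). Eif3i and Eif5, picked out after their values were seen, were the other 2 list genes that rose in old KO. These 3 of 120 are 2.5%, beside 2.54% of the 5866 expressed genes, and 0 of 120 were called by total counts (0.0341% of the 5866). Eif1b, a close relative of Eif1, had 125 ± 31.9, 4.85 ± 2.38 and 110 ± 113 CPM in the 3 groups, with no old WT library above background. Eef1a2, the form of Eef1a known from neurons and muscle, was above background in no library.

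Eif4b, which stimulates the helicase, had 474 ± 112 CPM in young WT and 504 ± 36.7 in old WT (SD, n = 3 each), and was above background in all 9 libraries. Its TMM-scaled fold change was -3.94 ± 0.97 (adjusted p = 0.0121, edgeR's quasi-likelihood test) and 0.09 scaled by total counts. Eef1g, the partner of Eef1b2 in the exchange complex, had 2550 ± 522, 499 ± 736 and 1840 ± 698 CPM in young WT, old WT and old KO. Eef1d, the other exchange subunit, had 185 ± 47.6, 25.0 ± 8.55 and 28.5 ± 26.8 CPM, and like Eef1b2 it was called lower in old KO against young WT (-5.02 ± 1.22, adjusted p = 0.0328 in edgeR's fit). In that comparison 25 of the 120 genes fell, 0 rose and 95 were not called. That is 20.8%, below the 26% of the 5866 expressed genes called lower (5.84% of all genes tested). By total counts 14 fell (11.7%), beside 17.1% of the 5866 and 3.93% of all genes tested. Eef1a2, which is not among the 5866, alone was called higher, beside 1.09% of the 5866 and 52.7% of all genes tested. Fbl, the methyltransferase of the nucleolus, was among the 25, with 309 ± 133 CPM in young WT and 60.2 ± 28.1 in old KO.

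Of the 122 list genes, 43 had an old KO mean CPM above that of young WT, and the share of all genes that did is not given here. Under TMM scaling 0 were called higher, beside 0.017% of the 5866 expressed genes and 6.92% of all genes tested. Etf1, which recognises stop codons, had 96.6 ± 38.0 CPM in young WT and 333 ± 187 in old KO, and Srp72, a protein of the signal recognition particle, 150 ± 165 and 482 ± 260. Mknk2, a kinase of the cap-binding factor eIF4E, had 287 ± 121, 41.4 ± 37.8 and 472 ± 156 CPM in young WT, old WT and old KO. The old KO mean of Btf3, the beta subunit that pairs with the Naca protein, was not above that of young WT: it had 587 ± 126, 340 ± 272 and 435 ± 194 CPM and was above background in all 9 libraries (SD, n = 3 for each value).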

How the data were processed

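Raw read counts per gene were deposited by the authors in 1 table with 9 columns. The mm10 genome, HTSeq 0.10.0, STAR 2.6.1d, Trim Galore 0.6.2 and edgeR 3.24.3 are listed, per the submitters' processing notes. For annotation and strand setting nothing is given in the sources used here, so antisense and overlapping genes cannot be told apart (4.33% of Eef1a1, 7.31% of Eef1b2 and 6.62% of Eif4a1 exon bases overlap another gene). The 5 lines naming no gene (outside genes, ambiguous at 0.619% to 5.48%, and the like) stayed out. Symbols matched 52403 of 52550 identifiers. Coordinates and principal transcript lengths come from GENCODE M21 (GRCm38) and start-site sequences from RefSeq.

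All 9 libraries were fitted with edgeR 4.0.16 in R 4.3.3 (quasi-likelihood F test, 1 mean per group, TMM factors, filterByExpr), and p-values were adjusted over 32582 genes, with calls at 0.05. Levels are CPM of counts in genes. The background left out the densest 1% of olfactory receptor genes. Processed copies were found with blastn (at least 90% identity over 300 bases). Alternatives were DESeq2 1.42.0, other scalings and filters, the 6 compared libraries, a replicate block, background subtraction, a threshold of 0.01 and leaving out each library. The fit was also run on data simulated from young WT means. That simulation held none of the background seen in old WT, so it cannot check the old WT results.

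Named were the 10 genes, Sphk2, 5 near relatives and, from each list, the 3 non-members with the highest mean CPM; a subset of these is printed. Members and lists were chosen with earlier results of these data known.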

Additional observations from a re-analysis of the deposited data

How the results depend on the processing

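Counts of the 10 genes called, and of all genes called, moved with the scaling and the test, and beyond those named here the cause was not tested. Old WT against young WT gave 10 of the 10 and 12058 genes. Total counts gave 4 and 23414 (95.2% higher, against 50.3%), background subtraction 0 and 12 of 8621 genes, a threshold of 0.01 gave 7 and 1874 (19.5% higher), and DESeq2 gave 9 of 10. For the remaining gene, Npm1, DESeq2 gave a log2 fold change of -5.50 and no adjusted p. Upper-quartile factors made 61.6% of calls higher. Leaving out 1 library kept all 10 and gave 3696 to 11412 genes, the lowest 3 without old WT libraries 3, 1 and 2 (3696, 4287 and 4633).

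Old KO against old WT gave 1 and 149. The values were 0 and 2 with total counts, upper-quartile or RLE factors and at 0.01, 6 and 2185 with DESeq2, 0 and 0 with the 6 compared libraries, 1 and 271 with no filter, and 1 and 14 with background subtracted. Leaving out 1 library gave 0 to 2 of the 10 and 0 to 185 genes. Old KO against young WT gave 1 and 4158 (54.3% higher). Total counts gave 0 and 18438 (93.1% higher), DESeq2 5 and 7999, background subtraction 0 and 4, and 0.01 gave 0 and 0. Of the 10 genes, 0 were called with upper-quartile factors (67.3% of all calls higher) or no filter (42.3%), 2 with RLE factors (43.7%) or the stricter filter, and 7 with the 6 compared libraries (72.7%). Leaving out 1 library gave 0 to 1 and 0 to 4483, with 0 genes without any 1 old KO library.

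No pairing by replicate number was seen, as deviations from the group means had correlations of -0.03 to 0.02 between same-numbered samples. These were taken over all genes tested, so they cannot tell whether same-numbered samples shared a preparation. With a replicate block the 3 comparisons called 10, 0 and 0 of the 10, and 7076, 2 and 0 genes.

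Reversed values were Naca in old WT against young WT (0.0599 with total counts, 0.55 with background subtracted). In old KO against young WT they were, with total counts, Tpt1 0.58, Eif4a1 0.0016, Eif1 1.20 and Naca 0.0706, and with background subtracted Eef1a1 0.45, Eef2 0.28, Tpt1 1.19, Eif4a1 0.61, Eif1 1.79, Pabpc1 0.44, Npm1 0.25, Eif3e 0.41 and Naca 0.68. The summed share, with Tpt1 included, kept its order under each alternative. Eif3e and Eif4a1 lay closest to the background in old WT. There Eif3e had 34 to 73 counts (0.520 to 1.08 times the background count) and Eif4a1 25 to 398 (0.544 to 16.5 times). With the length of all annotated exons in place of the principal transcript, an alternative chosen after seeing the data, the median rank of Tpt1 was 2, 7 and 3 in young WT, old WT and old KO (2, 7 and 2 otherwise), and that of Naca in young WT 248 in place of 86.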

Other observations

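Processed copies of the other genes held their largest share of counts, relative to the gene, in old WT. Eef1a1 has 10 copies, whose summed counts were 0.277% to 0.357% of those of the gene in young WT and 0.610% to 0.867% in old WT. In old WT the 3 copies of Eef2 held 8.01% to 201% of its counts, against at most 0.188% in young WT. The copies reached 24.9% of the gene's counts for Eif1 (17 copies), 35.7% for Npm1 (8), 57.8% for Eif4a1 (2) and 162% for Eif3e (3) in old WT, while in young WT they reached at most 1.31% for these 4. Eef1b2 had no copy by the criteria used. In old WT library 2, Npm1 stood at 247 times the background count and Eef2 at 267 times, and in library 3 at 8.29 and 8.32 times.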
